A study of Mus musculus with 11 samples.

Results

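Clec2h and 8 other lectin-like genes of the natural killer (NK) gene complex (Clec2i, Clec2d, Clec1a, Clec1b, Klrk1, Klri1, Klri2 and Klra8) were followed across the 4 genotypes of a mouse liver study. They are 9 of the 19938 genes that have a probe set with a single gene symbol on the array. All 9 lie on chromosome 6, on one side of Tnfrsf1a, the gene deleted in one of the genotypes, and each had exactly 1 such probe set. The genes were chosen by their low log2 values in Nemo/TNFR1 dKO livers, set against Nemo KO livers, so that comparison is given here as a description without a test. Other tests of these genes on Nemo/TNFR1 dKO or Nemo KO arrays reuse the choosing arrays, and their p-values do not allow for that.

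Expression was measured in whole-liver RNA of male mice of the strain label C57/BL6, 8 to 9 weeks old and fed chow, on 11 Affymetrix Mouse Gene 1.0 ST arrays. The Nemo/TNFR1 dKO group (3 arrays) lacks Nemo in hepatocytes (NemoΔhepa, from a loxP-flanked allele) and TNFR1 in all cells (TNFR1-/-). The Nemo/TRAIL dKO group (2 arrays) has the same hepatocyte deletion and lacks TRAIL in all cells (TRAIL-/-). The Nemo KO group (3 arrays) has the hepatocyte deletion alone, and the WT group (3 arrays) has none of these alleles. Nemo, the product of Ikbkg, is the adaptor that the IκB kinases need to activate NF-κB. TNFR1 is the main death-domain receptor for tumour necrosis factor, and TRAIL, encoded by Tnfsf10, is a death ligand of the same cytokine family. The labels name neither the driver of the hepatocyte deletion nor the strain in which the TNFR1-/- allele was made. Anything inherited together with that allele on chromosome 6 cannot be told apart from the lack of TNFR1.

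The NK gene complex is a cluster of genes for C-type lectin-like membrane proteins that NK cells and other immune cells use to sense their neighbours. Its Clec2 genes encode ligands carried by many cell types, and the neighbouring Klrb1 genes encode the NKR-P1 receptors on NK cells that bind them. Its Klrk1, Klri and Klra genes encode receptors of NK cells and T cells. Clec1a and Clec1b sit in the myeloid part of the cluster.

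The array values are log2 expression values per probe set, in which a difference of 1 is a doubling of signal. Levels of different probe sets were not set against each other, since probes differ in how brightly they report. Probe sets were tested in 1 linear model over all 35556 probe sets and all 11 arrays (limma, Benjamini-Hochberg adjusted p over all probe sets, called below 0.05), and the errors of differences are standard errors (SE) from that fit. Nothing in the labels says whether arrays of a genotype come from separate litters, and the p-values measure the spread between these arrays only. Among the targeted genes, Ikbkg averaged 8.21 in Nemo/TNFR1 dKO, 8.25 in Nemo/TRAIL dKO and 8.42 in Nemo KO livers, against 8.66 in WT livers. Against WT it was called lower in both double knockouts and not in Nemo KO livers (limma, adjusted p = 0.106). Tnfsf10 averaged 6.17 in Nemo/TRAIL dKO livers, against 6.54 in Nemo KO and 6.82 in WT livers, and neither difference was called. Tnfrsf1a averaged 10.06 in Nemo/TNFR1 dKO livers, against 10.33 in Nemo KO livers and 9.99 in WT livers. Its Nemo/TNFR1 dKO arrays overlapped those of both other groups. The sources used here do not say which probes lie in the deleted part, so its level does not check the label. The mean of 9 pancreatic acinar markers was 11.86 in WT replicate 3 and between 5.51 and 5.84 in the other 10 arrays, and results against WT are therefore also given without that array where it changes a call. The array names share a code in WT and Nemo KO and carry another code in each double knockout. If that code marks a batch, it cannot be told apart from the added knockouts, while Nemo KO and WT lie within 1 code. Array numbers also follow genotype.

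Upstream sequence was compared for the 3 genes on which the results turn: Clec2h, with the widest range over the arrays, and Clec2d and Klri1, which passed the test in opposite directions in Nemo KO livers. The 250 bases before each RefSeq start site are shown 5′ to 3′ on the gene's own strand (GRCm38.p6). They lie at chr6:128662135-128662384 (plus strand) for Clec2h, chr6:129180365-129180614 (plus strand) for Clec2d and chr6:129717133-129717382 (minus strand) for Klri1. Capitals mark a TATAA in Clec2h and in Clec2d the core of interferon-response elements (GAAA, any 2 bases, GAAA).
Clec2h: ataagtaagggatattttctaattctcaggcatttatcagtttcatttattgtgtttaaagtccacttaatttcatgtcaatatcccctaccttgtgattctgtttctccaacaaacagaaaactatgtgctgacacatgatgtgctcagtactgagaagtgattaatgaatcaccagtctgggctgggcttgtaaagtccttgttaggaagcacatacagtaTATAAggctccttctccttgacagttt
Clec2d: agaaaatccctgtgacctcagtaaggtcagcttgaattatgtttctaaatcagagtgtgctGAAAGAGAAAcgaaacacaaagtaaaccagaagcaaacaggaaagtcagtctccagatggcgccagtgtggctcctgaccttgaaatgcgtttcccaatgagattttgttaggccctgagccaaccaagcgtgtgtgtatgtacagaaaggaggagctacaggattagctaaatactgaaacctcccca
Klri1: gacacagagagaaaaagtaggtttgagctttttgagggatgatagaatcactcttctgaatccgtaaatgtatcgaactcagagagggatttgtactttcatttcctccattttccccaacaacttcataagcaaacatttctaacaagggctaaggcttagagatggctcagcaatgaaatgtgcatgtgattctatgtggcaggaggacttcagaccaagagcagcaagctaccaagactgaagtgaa
Over the whole RefSeq window of 300 bases, which runs 50 bases past the start, 7 of the 9 genes had an entry. Both strands were searched for TATAA, the interferon-response core, the HNF1 palindrome (GTTAAT, any base, ATTAAC) and the NF-κB consensus. The TATAA of Clec2h began 27 bases before the start, and TATAA was found in 24.9% of all 32851 RefSeq windows. The interferon-response core of Clec2d began 189 bases before the start, and 3.44% of all windows held one. Neither the NF-κB consensus (4.51% of all windows) nor the HNF1 palindrome (0.00913% of all windows) matched in the windows of the 7 genes. TATAA also matched in Clec1b, Clec2i and Klra8. A match describes letters only, and no binding was measured.

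**Figure D1:**
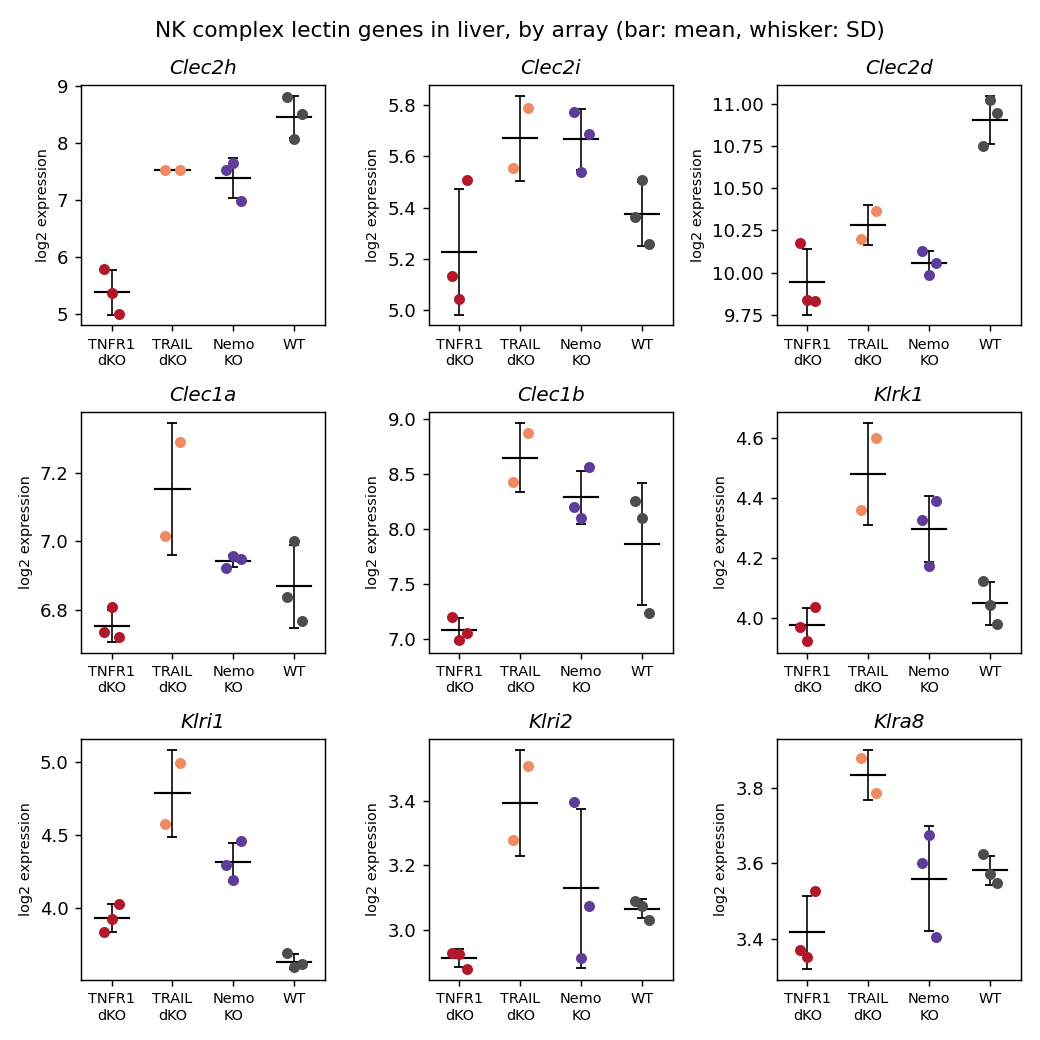
Log2 expression of each of the 9 lectin genes on every array (points), with the mean (bar) and SD (whisker) of each genotype. Each panel has its own vertical scale. Clec2h lay between 5.0 and 5.79 in Nemo/TNFR1 dKO livers and between 8.06 and 8.80 in WT livers.

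Clec2h, which encodes the membrane lectin Clr-f, a known ligand of an NKR-P1 receptor, had the widest range of the 9 genes over the arrays. It had 5.79, 5.36 and 5.0 log2 units in Nemo/TNFR1 dKO livers and 7.51 and 7.51 in Nemo/TRAIL dKO livers. The Nemo KO livers had 7.51, 7.65 and 6.98, and the WT livers had 8.80, 8.06 and 8.49. The 4 genotypes thus fell into 3 levels. WT was highest, Nemo/TRAIL dKO and Nemo KO overlapped in the middle, and every Nemo/TNFR1 dKO array lay below every array of the other genotypes. The mean (± SD, n = 3 each) was 5.38 ± 0.39 for the Nemo/TNFR1 dKO, 7.38 ± 0.36 for the Nemo KO and 8.45 ± 0.37 for the WT arrays, and 7.51 for the 2 Nemo/TRAIL dKO arrays.

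As a description, Clec2h was lower by 3.99-fold in Nemo/TNFR1 dKO than in Nemo KO livers (log2 difference -2.00 ± 0.25 SE). In Nemo/TNFR1 dKO livers it lay -3.07 ± 0.25 log2 units from WT and -2.13 ± 0.28 from Nemo/TRAIL dKO livers. Between Nemo/TRAIL dKO and Nemo KO livers the difference was 0.13 ± 0.28, within its error. Nemo KO livers differed from WT by -1.07 ± 0.25. Each of these comparisons uses Nemo/TNFR1 dKO or Nemo KO arrays, which had entered the choice of the gene. The comparison least touched by that choice, Nemo/TRAIL dKO against WT, gave -0.94 ± 0.28, with both Nemo/TRAIL dKO arrays below the lowest WT array, and did not pass the test (limma, adjusted p = 0.076). It passed when only probe sets at or above the median level were tested (adjusted p = 0.0397) and with the replicate number as a block (adjusted p = 0.0408). Over its other alternatives it did not pass, and the adjusted p ran up to 0.262.

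Clec2d encodes Clr-b, a broadly expressed ligand of the inhibitory receptor NKR-P1B (Klrb1b) that signals the presence of a healthy cell. It was lower in all 3 Nemo-deficient genotypes than in WT. The arrays had 10.17, 9.84 and 9.83 log2 units in Nemo/TNFR1 dKO livers and 10.20 and 10.37 in Nemo/TRAIL dKO livers. Values were 10.13, 9.98 and 10.06 in Nemo KO livers and 10.75, 11.02 and 10.94 in WT livers. Every WT array lay above all arrays of the other genotypes. Clec2d fell by 0.96 ± 0.11 log2 units in Nemo/TNFR1 dKO (limma, adjusted p = 0.00116), by 0.62 ± 0.12 in Nemo/TRAIL dKO (adjusted p = 0.0155) and by 0.85 ± 0.11 in Nemo KO livers (adjusted p = 0.00183), each against WT. The calls in Nemo/TNFR1 dKO and Nemo KO livers held with each of the 11 arrays left out in turn. The call in Nemo/TRAIL dKO livers was lost without WT replicate 2 (adjusted p = 0.0506), without Nemo/TRAIL dKO replicate 1 (adjusted p = 0.136) and in a fit of the compared groups alone (adjusted p = 0.0609). Among the Nemo-deficient genotypes the differences were small: -0.11 ± 0.11 in Nemo/TNFR1 dKO against Nemo KO livers, where the arrays overlapped, and -0.34 ± 0.12 in Nemo/TNFR1 dKO against Nemo/TRAIL dKO livers (adjusted p = 0.924).

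Clec2i encodes Clr-g, a ligand of the activating receptor NKR-P1F (Klrb1f). Its arrays had 5.14, 5.04 and 5.51 log2 units in Nemo/TNFR1 dKO livers and 5.55 and 5.79 in Nemo/TRAIL dKO livers. Nemo KO arrays gave 5.77, 5.54 and 5.69, and WT arrays gave 5.36, 5.51 and 5.26. The Nemo/TNFR1 dKO arrays lay below those of both other Nemo-deficient genotypes and overlapped WT. The description against Nemo KO was -0.44 ± 0.13. No tested comparison of Clec2i passed: -0.15 in Nemo/TNFR1 dKO against WT (limma, adjusted p = 0.548), 0.29 in Nemo/TRAIL dKO against WT (adjusted p = 0.288) and 0.29 in Nemo KO against WT (adjusted p = 0.203). The 3 Clec2 genes thus had different orders over the genotypes. WT was the highest group for Clec2h and Clec2d and not for Clec2i. As a description, Nemo/TNFR1 dKO lay clear of Nemo KO for Clec2h and Clec2i and not for Clec2d. That contrast chose the genes, and nothing is read from it.

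Clec1b encodes CLEC-2, the receptor through which platelets bind podoplanin, and is also known from Kupffer cells of the mouse liver. It had 7.20, 6.99 and 7.06 log2 units in Nemo/TNFR1 dKO livers and 8.42 and 8.87 in Nemo/TRAIL dKO livers. Nemo KO arrays gave 8.20, 8.10 and 8.56, and WT arrays gave 8.25, 8.10 and 7.23. The Nemo/TNFR1 dKO arrays lay below all others, with WT replicate 3 next to them. The description against Nemo KO was a 2.3-fold lower signal (log2 difference -1.20 ± 0.25 SE). Against WT the difference of -0.78 ± 0.25 did not pass (limma, adjusted p = 0.0877). Without WT replicate 3 it was -1.09 and passed (adjusted p = 0.00744), as it did when only probe sets at or above the median level were tested (adjusted p = 0.0476). Against Nemo/TRAIL dKO the difference of -1.56 ± 0.28 did not pass (adjusted p = 0.327), and it passed without WT replicate 3 (adjusted p = 0.0228). That array is not part of this comparison. Leaving it out kept the difference at -1.56 and changed only the error shared over all arrays. These tests reuse the Nemo/TNFR1 dKO arrays that chose the gene, so nothing is read from a pass. Clec1b in Nemo KO against WT livers, 0.42 ± 0.25, did not pass either (adjusted p = 0.321).

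In whole liver, fewer cells of a type and less RNA per cell cannot be told apart. Markers of the cell types known to carry Clec1b were therefore set beside it. The mean of 7 measured platelet markers of 11 listed ran from 6.51 to 6.55 in Nemo/TNFR1 dKO, from 6.48 to 6.56 in Nemo/TRAIL dKO, from 6.33 to 6.45 in Nemo KO and from 6.41 to 6.45 in WT livers. The mean of the 10 Kupffer cell markers ran from 8.97 to 9.08 in Nemo/TNFR1 dKO, from 8.85 to 8.92 in Nemo/TRAIL dKO, from 8.86 to 9.21 in Nemo KO and from 8.58 to 8.76 in WT livers. In Nemo/TNFR1 dKO livers, where Clec1b was lowest, the platelet mean lay above its Nemo KO range and the Kupffer cell mean within it. Against Nemo KO, the contrast that chose the lectin genes, 6 of 7 platelet and 4 of 10 Kupffer cell markers had a positive difference (medians 0.09 and -0.08). None was called by limma (0.0337% of all probe sets), and 1 and 2 had an unadjusted p below 0.05 (6.86% of all probe sets). Kupffer cell markers moved apart: in Nemo KO against WT livers Cd163 differed by -1.35 and Adgre1 by 1.06. Whether cell numbers account for Clec1b was not tested.

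Clec1a encodes a lectin-like receptor of endothelial and dendritic cells and varied little. It had 6.73, 6.81 and 6.72 log2 units in Nemo/TNFR1 dKO livers and 7.02 and 7.29 in Nemo/TRAIL dKO livers. In Nemo KO livers it had 6.92, 6.96 and 6.95, and in WT livers 6.84, 7.0 and 6.77. The Nemo/TNFR1 dKO arrays lay below those of the other Nemo-deficient genotypes and overlapped WT. The difference described against Nemo KO was -0.19 ± 0.09. No tested comparison passed. The differences were 0.28 ± 0.10 in Nemo/TRAIL dKO against WT (limma, adjusted p = 0.119) and -0.40 ± 0.10 in Nemo/TNFR1 dKO against Nemo/TRAIL dKO (adjusted p = 0.639). The mean of 13 sinusoidal endothelial markers ran from 9.51 to 9.62 in Nemo/TNFR1 dKO, from 9.49 to 9.70 in Nemo/TRAIL dKO, from 9.47 to 9.51 in Nemo KO and from 9.48 to 9.54 in WT livers. In Nemo/TNFR1 dKO against Nemo KO livers, the contrast that chose the lectin genes, 10 of these 13 markers had a positive difference. None was called by limma (0.0337% of all probe sets), and 2 had an unadjusted p below 0.05 (6.86% of all probe sets). Whether endothelial cell numbers account for Clec1a was not tested.

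The 4 receptor genes gave dim signals. Over the 11 arrays their means lay at percentiles 17.0 (Klrk1), 16.2 (Klri1), 10.2 (Klra8) and 5.3 (Klri2) of all probe sets, and the table has no detection calls. Small differences of such probe sets can be understated.

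Klri1 encodes an inhibitory receptor of NK cells that pairs with the product of Klre1. It had 3.83, 3.92 and 4.03 log2 units in Nemo/TNFR1 dKO livers and 4.57 and 5.0 in Nemo/TRAIL dKO livers. The Nemo KO livers had 4.29, 4.19 and 4.46, and the WT livers had 3.69, 3.59 and 3.61. No 2 genotypes overlapped, and their order was Nemo/TRAIL dKO, Nemo KO, Nemo/TNFR1 dKO and WT, high to low. Klri1 was higher by 1.16 ± 0.13 log2 units in Nemo/TRAIL dKO (limma, adjusted p = 0.00126) and by 0.68 ± 0.11 in Nemo KO (adjusted p = 0.00555), each against WT. Both calls held with each array left out in turn. The difference of 0.30 ± 0.11 in Nemo/TNFR1 dKO against WT livers did not pass (adjusted p = 0.146). The description against Nemo KO was -0.38 ± 0.11. The difference of -0.86 ± 0.13 between Nemo/TNFR1 dKO and Nemo/TRAIL dKO livers did not pass (adjusted p = 0.109), and passed without Nemo/TRAIL dKO replicate 1 (adjusted p = 0.0384).

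Klrk1 encodes NKG2D, the activating receptor for stress-induced ligands. It had 3.97, 3.92 and 4.04 log2 units in Nemo/TNFR1 dKO livers and 4.36 and 4.60 in Nemo/TRAIL dKO livers. In Nemo KO livers it had 4.33, 4.17 and 4.39, and in WT livers 4.12, 4.04 and 3.98. The Nemo/TNFR1 dKO and WT arrays overlapped, and both other genotypes lay above them. Klrk1 rose by 0.43 ± 0.10 in Nemo/TRAIL dKO against WT livers (limma, adjusted p = 0.0246). That call was lost without WT replicate 2 (adjusted p = 0.0649), WT replicate 3 (adjusted p = 0.0626) or Nemo/TRAIL dKO replicate 2 (adjusted p = 0.175), in a fit of the compared groups alone (adjusted p = 0.112) and with a replicate block (adjusted p = 0.0581). In Nemo KO against WT livers the difference of 0.25 ± 0.09 did not pass (adjusted p = 0.11), and passed after quantile normalization (adjusted p = 0.0465). Against Nemo KO, Nemo/TNFR1 dKO livers were described by -0.32 ± 0.09.

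Klri2, whose product is the activating counterpart of KLRI1, had 2.93, 2.92 and 2.88 log2 units in Nemo/TNFR1 dKO livers and 3.28 and 3.51 in Nemo/TRAIL dKO livers. The Nemo KO livers had 3.40, 2.91 and 3.07, and the WT livers had 3.09, 3.07 and 3.03. Klra8 encodes Ly49H, an activating receptor for a protein of mouse cytomegalovirus that only some inbred strains carry. It had 3.37, 3.35 and 3.53 log2 units in Nemo/TNFR1 dKO livers and 3.88 and 3.79 in Nemo/TRAIL dKO livers. Values were 3.60, 3.67 and 3.41 in Nemo KO livers and 3.62, 3.57 and 3.55 in WT livers. For both genes the Nemo/TNFR1 dKO arrays lay below all WT arrays and overlapped Nemo KO, and no tested comparison passed. Klra genes form a family of related genes, and whether other Klra transcripts reach this probe set was not tested.

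**Figure D2:**
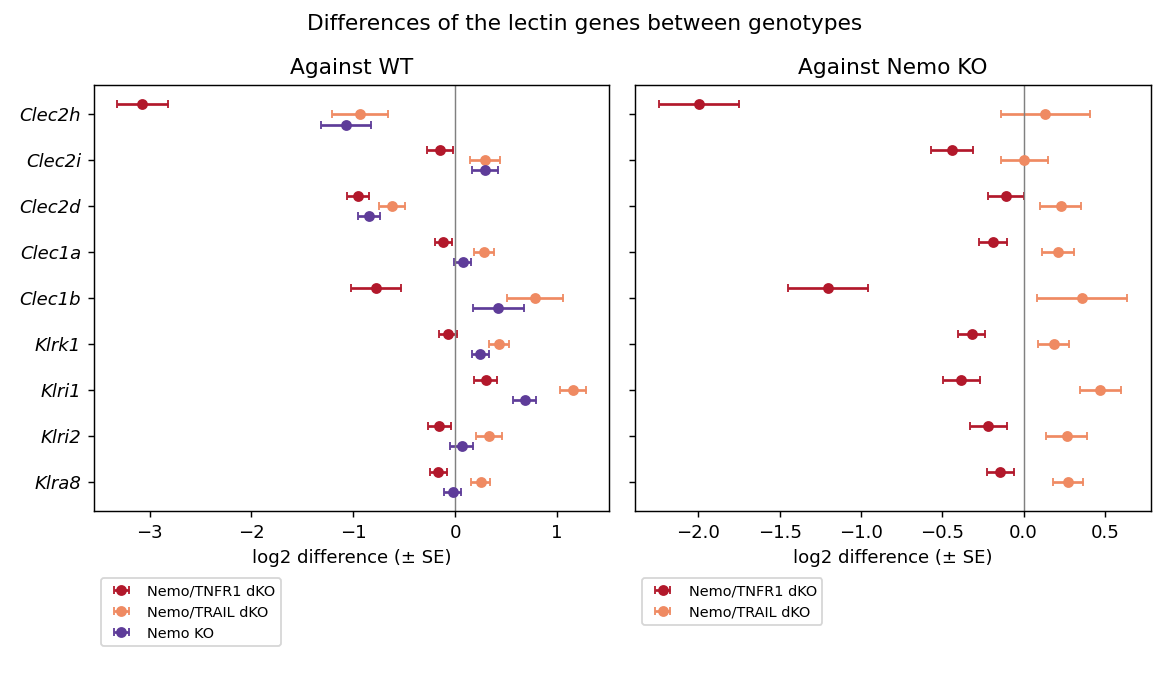
Log2 difference (± SE, from the fit over all arrays) of the 9 lectin genes in each Nemo-deficient genotype against WT (left) and in each double knockout against Nemo KO (right). Against Nemo KO all 9 differences were negative in Nemo/TNFR1 dKO livers, the contrast by which the genes were chosen. Clec2h stood at -2.00 there and at 0.13 in Nemo/TRAIL dKO livers.

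Counts over the 9 genes were read against all probe sets. In Nemo/TNFR1 dKO against Nemo KO livers all 9 differences were negative (median -0.32, against 0.01 over all probe sets). There 6 genes (Clec2h, Clec2i, Clec1a, Clec1b, Klrk1 and Klri1) were lower without overlap, as were 5.84% of all probe sets, and 0.0337% of all probe sets were called. The choice of the genes fixed this, and nothing is read from it. In Nemo/TNFR1 dKO against Nemo/TRAIL dKO livers all 9 genes were lower without overlap, against 8.21% of all probe sets. None of the 8 genes tested there was called by limma, where 0.0478% of all probe sets were, and all 8 had an unadjusted p below 0.05 (5.03% of all probe sets). The Nemo/TNFR1 dKO arrays that chose the genes enter this comparison, so low values there are built in by the choice, and nothing is read from these counts.

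Against WT the genes moved both ways. In Nemo/TNFR1 dKO livers 1 of 8 tested genes was called, Clec2d, which was lower, where 9.18% of all probe sets were called and 3.35% were called lower. Without overlap, 5 of the 9 genes were lower there (13.9% of all probe sets) and 1 was higher (11.6% of all probe sets). In Nemo/TRAIL dKO livers 3 of 9 were called (7.55% of all probe sets), Klri1 and Klrk1 higher (4.91% of all probe sets) and Clec2d lower (2.64% of all probe sets). None of the 9 genes overlapped WT there: 7 were higher (14.7% of all probe sets) and 2 were lower (21.1% of all probe sets). In Nemo KO livers 2 of 8 were called (9.29% of all probe sets), Klri1 higher (6.08% of all probe sets) and Clec2d lower (3.21% of all probe sets). Without overlap, 3 of the 9 genes were higher there (12.8% of all probe sets) and 2 were lower (17.4% of all probe sets). The median over the 9 genes was -0.15 in Nemo/TNFR1 dKO, 0.29 in Nemo/TRAIL dKO and 0.07 in Nemo KO livers against WT, and over all probe sets it was -0.04 in Nemo/TNFR1 dKO and -0.05 in both others. These 3 comparisons share the WT arrays. Those of Nemo/TNFR1 dKO and Nemo KO livers also use the arrays that chose the genes, low in the former and higher in the latter. Their counts are shaped by that choice, and nothing is read from them.

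In Nemo/TRAIL dKO against Nemo KO livers all 9 differences were above 0 (median 0.23, against 0.00 over all probe sets), though that of Clec2i was 0.00 when rounded and changed sign under 3 alternatives. Clec2d, Clec1a, Klri1 and Klra8 were higher there without overlap, as were 8.97% of all probe sets. None of the 8 tested was called by limma, where 0.00562% of all probe sets were, and 2 of the 8 had an unadjusted p below 0.05, against 4.04% of all probe sets. The Nemo KO arrays used here also entered the choice of the genes, and the Nemo/TRAIL dKO group has 2 arrays. Genes of 1 cluster need not vary independently, so these counts are a description.

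The other genes of the complex were taken as lists. Of 23 further lectin receptor genes 18 were measured, with a median of -0.05 in Nemo/TNFR1 dKO against Nemo KO livers. There 8 of the 18 differences were positive, and 5 of the 18 had an unadjusted p below 0.05, against 6.86% of all probe sets. None was called by limma, where 0.0337% of all probe sets were. Without Nemo KO replicate 2 the count was 1, Klrb1b. Among them Klrb1b, the receptor of Clec2d, averaged 5.10 in Nemo/TNFR1 dKO livers, against 5.74 in Nemo KO livers (difference -0.64 ± 0.16, adjusted p = 0.496). Without Nemo KO replicate 2 this difference was -0.86 ± 0.09 and passed (adjusted p = 0.0238). Klrb1f, the receptor of Clec2i, averaged 5.25 in Nemo/TNFR1 dKO livers, against 5.76 in Nemo KO livers (difference -0.51 ± 0.15, adjusted p = 0.515). Against WT, 1 receptor gene rose in Nemo/TNFR1 dKO livers (9.18% of all probe sets called), 2 rose in Nemo/TRAIL dKO livers (7.55%), and 2 rose and 1 fell in Nemo KO livers (9.29%). With each array left out in turn the calls ran from 0 to 2 in Nemo/TNFR1 dKO, from 0 to 3 in Nemo/TRAIL dKO and from 1 to 3 in Nemo KO livers. Klra17 rose by 1.06 ± 0.25 in Nemo/TNFR1 dKO livers (adjusted p = 0.031) and kept its call in 6 of the 11 such fits. Klrb1 fell by 0.42 ± 0.12 in Nemo KO livers (adjusted p = 0.0492) and kept its call in 1 of the 11. Klrd1, which encodes CD94, rose by 0.90 ± 0.18 in Nemo KO livers (adjusted p = 0.0128, lost without Nemo KO replicate 3 at an adjusted p of 0.05). Klra2 rose by 0.94 ± 0.16 in the same livers (adjusted p = 0.00646) and kept its call without each array in turn. The mean log2 level over the receptor list ran from 4.13 to 4.21 in Nemo/TNFR1 dKO and from 4.31 to 4.31 in Nemo/TRAIL dKO livers. It ran from 4.23 to 4.29 in Nemo KO and from 4.08 to 4.13 in WT livers. For the list the Nemo/TNFR1 dKO and WT ranges overlapped, which those of Klri1 did not.

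Of 19 further C-type lectin genes on the chromosome 18 were measured, with a median of -0.11 in Nemo/TNFR1 dKO against Nemo KO livers. There none was called by limma (0.0337% of all probe sets), and 3 had an unadjusted p below 0.05 (6.86% of all probe sets). Against WT, 4 rose and 2 fell in Nemo/TNFR1 dKO livers, 5 rose in Nemo/TRAIL dKO livers, and 6 rose and 2 fell in Nemo KO livers. The shares of all probe sets called in these comparisons were 9.18%, 7.55% and 9.29%. With each array left out in turn the calls numbered 6 in every fit in Nemo/TNFR1 dKO, from 3 to 6 in Nemo/TRAIL dKO (3 without Nemo/TRAIL dKO replicate 2) and from 5 to 8 in Nemo KO livers (5 without Nemo KO replicate 3). With only probe sets at or above the median level tested, which leaves out dim genes, they numbered 2 in Nemo/TNFR1 dKO and 4 in Nemo KO livers. Those that rose encode lectins of myeloid cells. Clec7a, which encodes the β-glucan receptor dectin-1, was higher by 1.73 ± 0.19 in Nemo/TNFR1 dKO (adjusted p = 0.00096), by 2.38 ± 0.21 in Nemo/TRAIL dKO (adjusted p = 0.00069) and by 2.08 ± 0.19 in Nemo KO livers (adjusted p = 0.000457). Those that fell belonged to the Clec2 family: Clec2j by 0.62 ± 0.09 in Nemo/TNFR1 dKO (adjusted p = 0.0033) and by 0.41 ± 0.09 in Nemo KO livers (adjusted p = 0.0209), and Clec2g by 0.46 ± 0.09 in Nemo/TNFR1 dKO (adjusted p = 0.00959) and by 0.38 ± 0.09 in Nemo KO livers (adjusted p = 0.0226). Both calls in Nemo/TNFR1 dKO livers held with each array left out. In Nemo KO livers each was lost in 4 of the 11 fits that leave out an array. For Clec2j these were the fits without WT replicates 1 and 2 and without Nemo KO replicates 2 and 3. For Clec2g they were those without WT replicates 2 and 3 and without Nemo KO replicates 2 and 3.

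NK cell markers encoded outside the complex were set beside the receptor genes. Of 16 listed, 15 were measured, and their mean ran from 5.98 to 6.20 in Nemo/TNFR1 dKO, from 5.98 to 6.05 in Nemo/TRAIL dKO, from 5.94 to 6.0 in Nemo KO and from 5.65 to 5.69 in WT livers. Against WT 5 of them rose in Nemo/TNFR1 dKO, 3 in Nemo/TRAIL dKO and 3 in Nemo KO livers, and none fell, where 9.18%, 7.55% and 9.29% of all probe sets were called. The 5 became 3 without Nemo/TNFR1 dKO replicate 3 and with the filter at the median level, and the 3 in Nemo/TRAIL dKO livers became 1 without Nemo/TRAIL dKO replicate 1. Nkg7, Fcgr3 and Tyrobp were called higher in all 3 genotypes, and Gzmb and Il2rb in Nemo/TNFR1 dKO livers alone. Il2rb kept its call in 2 of the 11 fits that leave out an array, and Nkg7 in Nemo KO livers in 5. Both of these calls were lost without WT replicate 3. Il2rb averaged 6.94 in Nemo/TNFR1 dKO, 6.74 in Nemo/TRAIL dKO, 6.65 in Nemo KO and 6.34 in WT livers. Ncr1, Prf1, Gzma, Eomes and Tbx21 were called in none of the 3 genotypes, so the calls cover only part of the list. Prf1 averaged 6.02 in Nemo/TNFR1 dKO, 6.04 in Nemo/TRAIL dKO, 6.04 in Nemo KO and 6.07 in WT livers. Of the 10 Kupffer cell markers, 5 also rose in Nemo/TNFR1 dKO against WT livers. In Nemo/TRAIL dKO livers 4 rose and 2 fell, and in Nemo KO livers 5 rose and 1 fell. Which cells carry these rises was not tested. Between Nemo/TNFR1 dKO and Nemo KO livers, the contrast that chose the lectin genes, 11 of the 15 NK cell markers had a positive difference (median 0.05). There 0 were called by limma (0.0337% of all probe sets) and 1 had an unadjusted p below 0.05 (6.86% of all probe sets). Whether NK cell numbers account for Klrk1 or Klri1 was not tested. The mean of 11 measured T cell markers of 14 listed ran from 6.17 to 6.38 in Nemo/TNFR1 dKO, from 6.10 to 6.12 in Nemo/TRAIL dKO, from 6.06 to 6.19 in Nemo KO and from 5.95 to 6.03 in WT livers. The mean of 8 measured hepatocyte markers of 10 listed lay between 12.95 and 13.13 in all 4 genotypes.

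**Figure D3:**
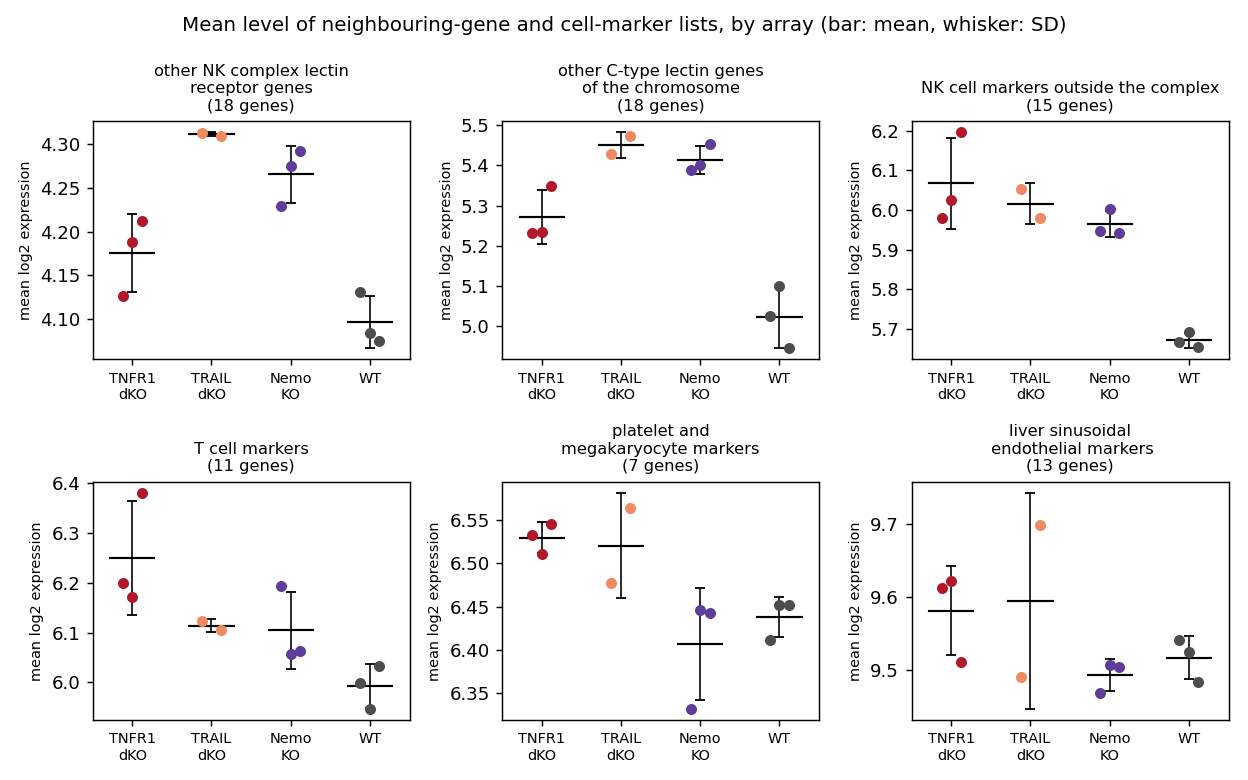
Mean log2 expression over the measured genes of 6 lists on every array (points), with the mean (bar) and SD (whisker) of each genotype. Each panel has its own vertical scale. The mean of the other lectin receptor genes lay between 4.13 and 4.21 in Nemo/TNFR1 dKO, below the 4.23 to 4.29 of Nemo KO livers. In that contrast 8 of the 18 receptor genes had a positive difference. The mean of the NK cell markers outside the complex did not lie below that of Nemo KO livers.

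The 9 genes were then placed among their neighbours. RefSeq lists 153 genes from Tnfrsf1a to Klra8, with Clec2h 93 genes and Klra8 152 genes after Tnfrsf1a, and 70 of them had a single-symbol probe set. Between Nemo/TNFR1 dKO and Nemo KO livers the 61 that are not among the 9 lectin genes ranged from -0.64 to 0.52 (median 0.00, 31 above 0). None of the 61 was called by limma (0.0337% of all probe sets), and 6 had an unadjusted p below 0.05, where 6.86% of all probe sets did. Without Nemo KO replicate 2 the count was 1, Klrb1b. The 35 measured genes from Tnfrsf1a up to Clec2h ranged only from -0.27 (Tnfrsf1a itself) to 0.24 (Rad51ap1), with a median of 0.04. The 26 after Clec2h ranged from -0.64 (Klrb1b) to 0.52 (Klra17), with a median of -0.06. The measured gene before Clec2h, Clec2j, differed by -0.20, and the one after it, Klrb1, by 0.26. Clec2h itself stood at -2.00. The 9 genes were chosen by low values in this comparison, so a narrower range of the other 61 is partly built in, and nothing is read from it. In Nemo/TRAIL dKO against Nemo KO livers the same 2 stretches ranged from -0.27 to 0.14 and from -0.23 to 0.30.

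**Figure D4:**
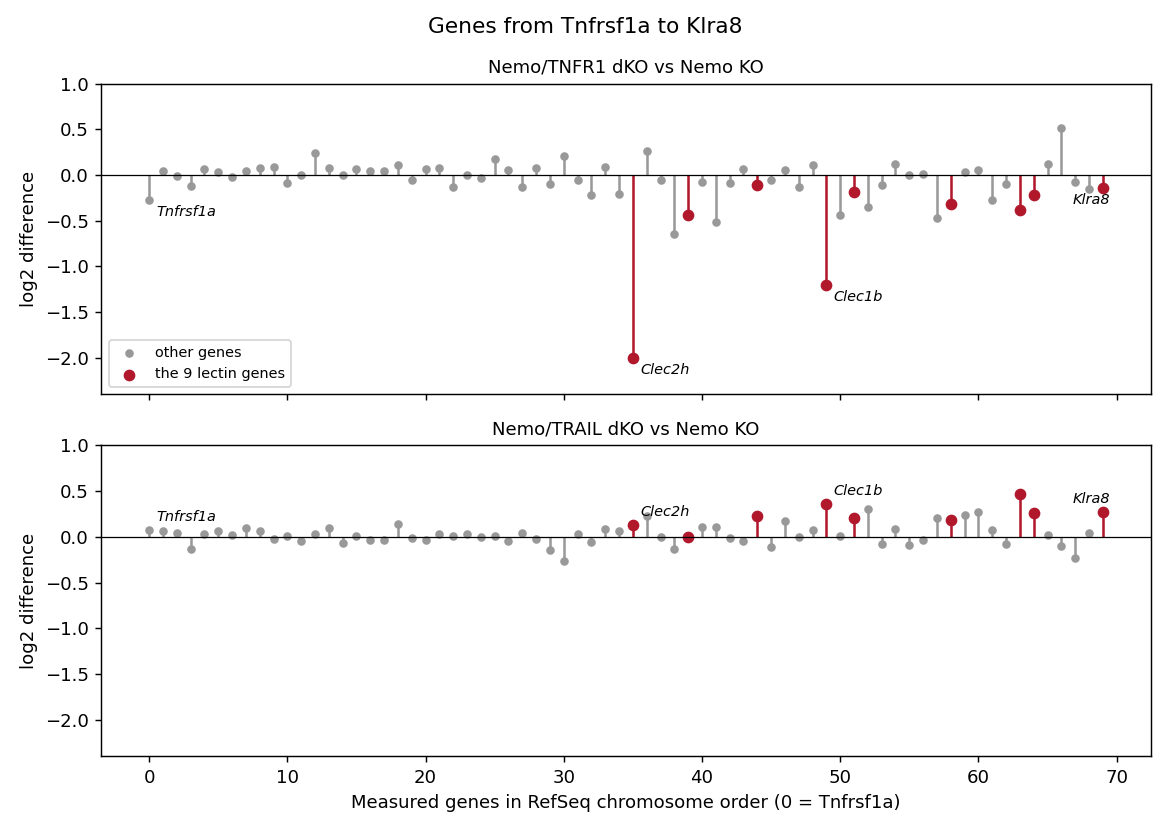
Log2 difference of the 70 measured genes from Tnfrsf1a to Klra8, in RefSeq order (1 step per measured gene, not to scale in distance), in Nemo/TNFR1 dKO (top) and Nemo/TRAIL dKO (bottom) against Nemo KO livers. Red points are the 9 lectin genes. In the top panel Clec2h stood at -2.00 and Clec1b at -1.20, and the other 61 genes ranged from -0.64 to 0.52. The 9 genes were chosen by low values in that comparison, so nothing is read from this contrast.

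The genes whose levels followed Clec2h most closely over the 11 arrays, by Pearson correlation among single-symbol probe sets, were Gde1 (r = 0.949), Morn2 (r = 0.949), Snord58b (r = 0.947), Serpina11 (r = 0.933) and Vps37a (r = 0.922). They lie on chromosomes 7, 17, 18, 12 and 8, and none on chromosome 6. All 5 had their lowest mean in Nemo/TNFR1 dKO and their highest in WT livers, over a narrower range than Clec2h. Serpina11, a serine protease inhibitor gene, averaged 7.61 in Nemo/TNFR1 dKO, 8.17 in Nemo/TRAIL dKO, 8.03 in Nemo KO and 8.52 in WT livers. The 5 genes were picked by this correlation, so a shared lowest and highest group follows from the choice. Snord58b was dim, with means of 2.81 in Nemo/TNFR1 dKO and 3.42 in WT livers. These correlations rest on arrays that share their genotype groups and are a description.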

How the data were processed

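Each of 11 whole-liver RNA samples was measured on 1 array. Per the submitters' processing notes, the deposited log2 values were made by the authors with RMA (version not given in the sources used here), and no further normalization was applied. Of 35556 probe sets, 21789 had 1 gene symbol in the platform annotation, 1621 several and 12146 none, and 21698 were matched to RefSeq (GRCm38.p6) by gene ID, which served names, gene order and upstream sequences only. Samples were grouped by the labelled genotype. With R 4.3.3 and limma 3.58.1, 1 mean per genotype was fitted over all arrays (7 residual and 2.51 prior degrees of freedom), with two-sided p-values adjusted by Benjamini-Hochberg. The model was tested on simulated data, and precision is limited by the number of arrays.

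The 9 genes and the gene lists were chosen with earlier results of these data known, the acinar markers last. Named by rule were the 9 genes and the targeted genes, called list members with the largest differences, the 5 most different neighbours and the 5 genes most correlated with Clec2h. Klrb1b and Klrb1f as receptors, Clec2g and Clec2j, and the genes beside Clec2h or at the ends of a stretch were named after their values were seen. Clec2h was tested only between Nemo/TRAIL dKO and WT. The other lectin genes were also tested on arrays that entered the choice, and their p-values do not allow for it. The alternatives were a variance trend, quantile normalization, a filter at the median level, the compared groups alone, a replicate block and each array left out. Same-numbered arrays did not deviate together (15 pairs, correlations -0.117 to 0.0435), so the numbers do not pair the samples.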

Additional observations from a re-analysis of the deposited data

How the results depend on the processing

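Nearly all values kept their direction. The exceptions were differences near 0: Clec2i between Nemo/TRAIL dKO and Nemo KO (0.00) was -0.0063 after quantile normalization, -0.06 without Nemo KO replicate 2 and -0.11 without Nemo/TRAIL dKO replicate 2, in a range of -0.11 to 0.12 over the left-out arrays. Klra8 in Nemo KO against WT was 0.06 after quantile normalization (0.0552) and without Nemo KO replicate 3 (0.0555), where the left-out arrays gave -0.079 to 0.056. Klri2 between Nemo KO and WT was -0.071 without Nemo KO replicate 1, in a range of -0.071 to 0.17. For Clec2h the difference between Nemo/TRAIL dKO and Nemo KO ranged from -0.07 to 0.27. With only probe sets at or above the median level tested, which leaves no value for Clec2i, Klrk1, Klri1, Klri2 and Klra8, 2 of the lectin genes were called in Nemo/TNFR1 dKO against WT and 1 in Nemo KO against WT. In fits of the compared groups alone, with fewer arrays, the calls over all probe sets were 1831 in Nemo/TNFR1 dKO against WT (3263 over all arrays), 1244 in Nemo/TRAIL dKO against WT (2684), 9 between the double knockouts (17) and 1 in Nemo/TRAIL dKO against Nemo KO (2), and 1 lectin gene was called in Nemo/TRAIL dKO against WT. With each array left out in turn, calls over all probe sets ran from 1926 to 3342 in Nemo/TNFR1 dKO, 823 to 2884 for Nemo/TRAIL dKO and 1933 to 3549 for Nemo KO, each against WT. They ran from 10 to 15 between Nemo/TNFR1 dKO and Nemo KO, from 11 to 17 between the double knockouts, and from 0 to 5 between Nemo/TRAIL dKO and Nemo KO. The lectin genes called ran from 1 to 2 in Nemo/TNFR1 dKO, 1 to 3 for Nemo/TRAIL dKO and 2 to 2 for Nemo KO, each against WT, from 0 to 1 between the double knockouts, and 0 to 0 between Nemo/TRAIL dKO and Nemo KO. Where a Nemo/TRAIL dKO array is left out, the remaining one is assumed to vary like the other groups. With the replicate number as a block, Clec2h in Nemo/TRAIL dKO against WT was -1.06 (adjusted p = 0.0408) and Klrk1 was 0.45 (adjusted p = 0.0581), and no other call of a lectin gene changed. No gene had a further single-symbol probe set, so that alternative gave no value. The cause of these changes was not tested beyond the construction of each alternative.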

Other observations

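Besides its own probe set, Klra8 was listed with other genes on 2 probe sets that were not used. One, annotated to 7 symbols, ran from 3.24 to 3.40 log2 units over the 11 arrays, and the other, annotated to 5 symbols, from 2.85 to 3.28.

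Of 9 listed genes for ligands of NKG2D, the receptor that Klrk1 encodes, 2 were measured. Raet1d rose by 1.72 ± 0.42 log2 units in Nemo/TRAIL dKO against WT livers (limma, adjusted p = 0.0378), and kept its call in 3 of the 11 fits that leave out an array, with an adjusted p of up to 0.18.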
